A study of Mus musculus with 10 samples.

Results

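Elastic fibre genes encode the protein that lets tissues stretch and recoil and the proteins that scaffold it. A set of 10 of them was followed in the subcutaneous mammary fat pad of mice labelled FAP-/- or wild type for fibroblast activation protein (Fap), a cell-surface serine protease made by activated fibroblasts. The genes are elastin (Eln), fibrillin 1 (Fbn1), the fibulins Fbln1, Fbln2, Fbln5, Efemp1 and Efemp2, the microfibril-associated genes Mfap4 and Mfap5, and Emilin1. They were taken by symbol for the function of their proteins, with earlier results of these data known. All 10 of 10 were found among the 30319 gene symbols of the deposited table. Whole inguinal pads of female FVB mice were used, and total RNA was sequenced after ribosomal RNA had been depleted. The mice ate ingredient-matched diets between 12 and 30 weeks of age, with 60% (HFD) or 10% (LFD) of calories from fat. The 10 libraries comprised 3 from FAP-/- mice on the high-fat diet (Null_HFD), 2 from wild-type mice on the high-fat diet (WT_HFD), 3 from FAP-/- mice on the low-fat diet (Null_LFD) and 2 from wild-type mice on the low-fat diet (WT_LFD). The series calls them biological replicates, and the title of the series places FAP beside fat cell formation and signalling that depends on the matrix. The labels do not state how Fap was disrupted.

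An elastic fibre forms when secreted tropoelastin is gathered on a sheath of fibrillin microfibrils and crosslinked by lysyl oxidases. Fibulins bind tropoelastin, fibrillin and the crosslinking enzymes, while microfibril-associated proteins and emilin 1 sit on the microfibril or at its border with elastin. In fat the fibres lie in vessel walls, in the septa between lobules and around adipocytes, and fibroblasts and smooth muscle cells are the usual makers. Each library holds the RNA of a whole pad, so fewer cells of a type and less RNA per cell cannot be told apart.

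Levels are TPM, transcript abundances scaled to transcript length and to a fixed total per library, so that they can be compared between genes. They hold no count of reads, and the depth of the libraries is unknown. The labelled tissue matched its markers, since all 10 mature adipocyte markers reached 1 TPM in every library, Adipoq, the gene of adiponectin, at 752 to 3206 TPM. Null_HFD 3 and WT_HFD 2 stood apart, with 4374 TPM (Null_HFD 3) and 1827 TPM (WT_HFD 2) summed over 15 lymph node markers against 29.9 to 78.4 TPM in the other 8 libraries. The same 2 libraries had the lowest sums over 10 skeletal muscle markers, 89.6 TPM (Null_HFD 3) and 193 TPM (WT_HFD 2) against 1711 to 8417 TPM elsewhere. Null_HFD 3 also had the lowest sum over the adipocyte markers, 10797 TPM against 15625 to 33480 TPM, and the lowest sum over 12 fibroblast and adipose progenitor markers, 5899 TPM against 7514 to 12278 TPM elsewhere. The sum over 10 mammary luminal epithelium markers separated the genotypes within each diet, in opposite directions, with 329 to 873 TPM in Null_HFD against 1130 to 1344 TPM in WT_HFD, and 1310 to 2442 TPM in Null_LFD against 516 to 1073 TPM in WT_LFD. Its part, and that of muscle and fat cells, in the group differences was not tested. Null_LFD 3 had 544 TPM over 10 cell cycle markers against 31.1 to 117 TPM elsewhere. Fap itself was not absent in the null libraries, at 26.7, 38.4 and 22.3 TPM in Null_HFD against 68.8 and 37.7 TPM in WT_HFD, and at 18.4, 22.4 and 18.3 TPM in Null_LFD against 45.4 and 39.2 TPM in WT_LFD, so it checks the labels only in part. Its null minus wild-type difference over both diets was -0.94 on the log2(TPM + 1) scale (SE 0.21, limma adjusted p = 0.686).

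The 10 genes together took 398 to 676 TPM per library, least in Null_HFD 3. Efemp1 (mean 160 TPM over all libraries) and Mfap5 (147 TPM) were the most abundant, followed by Fbn1 (102 TPM), Fbln2 (74.9 TPM), Efemp2 (37.0 TPM), Fbln1 (22.8 TPM), Eln (19.2 TPM), Fbln5 (12.9 TPM), Emilin1 (6.20 TPM) and Mfap4 (4.94 TPM). Efemp1 and Mfap5 could not be ranked, as each was the higher of the pair in 5 of 10 libraries, and neither could Fbln1 and Eln (5 of 10). Eln exceeded Fbln5, and Emilin1 exceeded Mfap4, in 6 of 10 libraries each. Fbn1 exceeded Fbln2 in 8 of 10, Efemp2 exceeded Fbln1 and Fbln5 exceeded Emilin1 in 9 of 10 each, and Mfap5 exceeded Fbn1 and Fbln2 exceeded Efemp2 in 10 of 10.

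**Figure D1:**
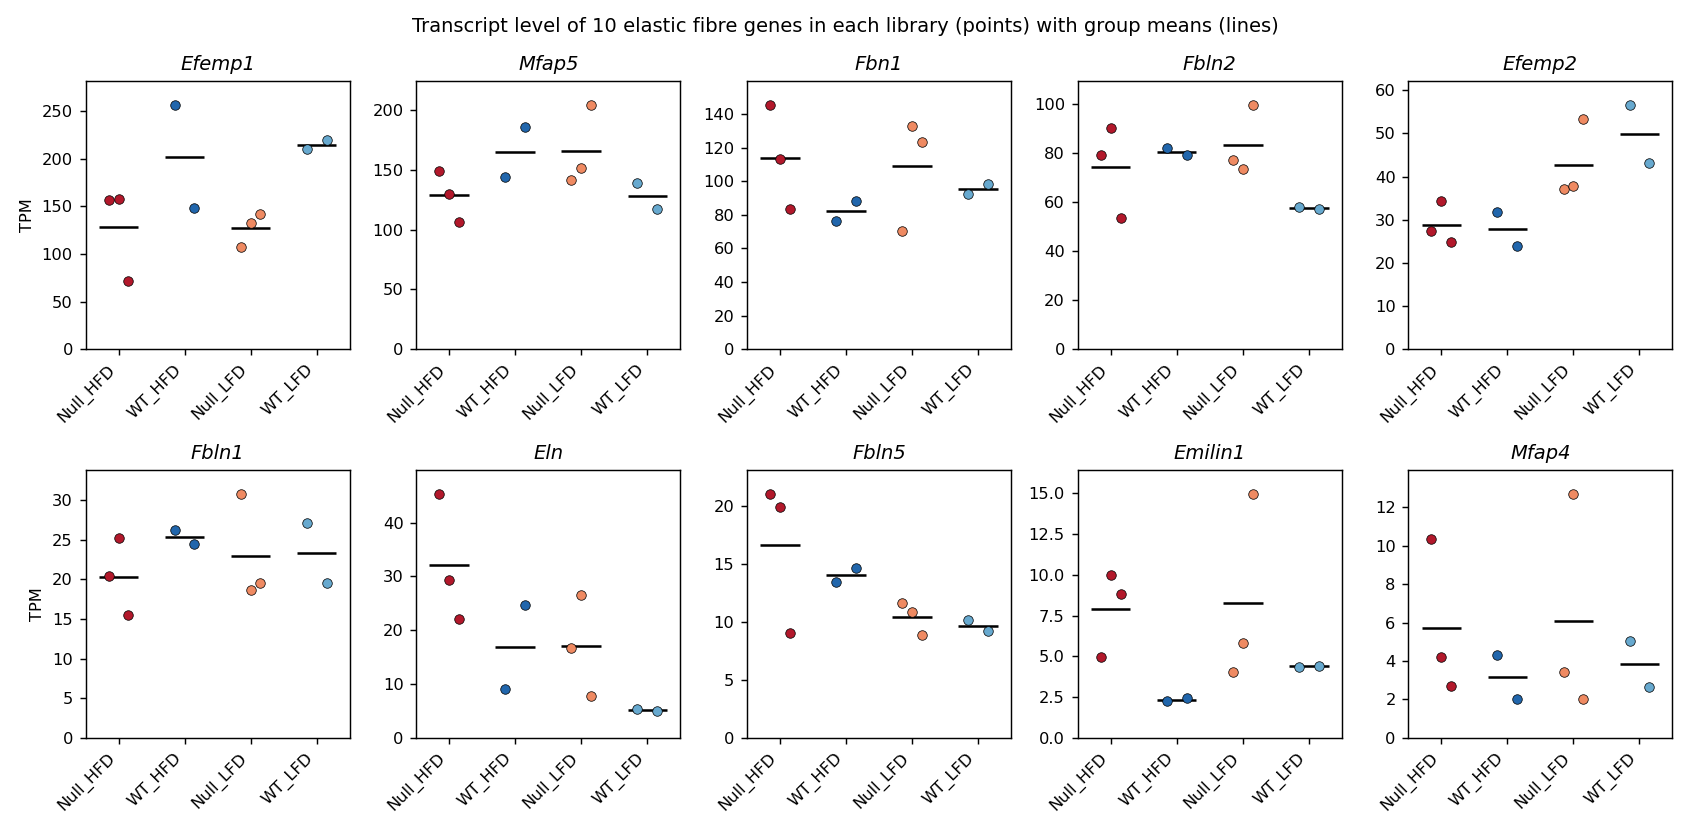
TPM of each elastic fibre gene (linear axes starting at 0, one scale per gene) in every library, as points, with the group means as lines, for Null_HFD (n = 3), WT_HFD (n = 2), Null_LFD (n = 3) and WT_LFD (n = 2). Eln had its group mean of 32.2 TPM in Null_HFD and of 5.20 TPM in WT_LFD, and the HFD points of Efemp2 all lie below the LFD points.

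Genotype, as labelled, was compared over both diets in 6 null against 4 wild-type libraries. Elastin and emilin 1 transcripts measured more, and Efemp1 transcripts less, in null than in wild-type pads on average, but no elastic fibre gene passed the test. At a limma adjusted p of 0.05 or less, 0 of 10 members were called, beside 0% of the 16932 genes tested. At an unadjusted p under 0.05 there were 3 members (Eln, Efemp1 and Emilin1) against 4.19% of all genes. The median log2 difference of the members was 0.15, beside 0.084 over all genes tested, 6 members lay above 0 (63.5% of all genes did) and 4 below, and 5 were within 1 standard error (SE) of 0. That median rested on single libraries, as it was 0.071 without Null_HFD 2 (0.072 over all genes), 0.085 without Null_HFD 1 (0.116 over all genes), 0.296 without Null_HFD 3 and 0.306 without both lymph node-rich libraries. It was 0.078 with median-of-ratios scaling (0.018 over all genes). The null and wild-type libraries overlapped for all 10 members, as they did for all but 0.921% of the genes. Within the high-fat diet limma called 0 of 10 members (0.0118% of genes; 1 member against 3.82% at an unadjusted p under 0.05), and the groups did not overlap for 1 member against 15.5% of genes (Emilin1, higher in null; 7.73% of genes were separated that way and 7.78% the other way). Within the low-fat diet it called 0 of 10 (0% of genes; 1 member against 4.43% at an unadjusted p under 0.05), and the groups did not overlap for 4 members against 25.4% of genes. Of these members Eln, Fbln2 and Mfap5 were higher in null (19.1% of genes) and Efemp1 was lower (6.3% of genes). With median-of-ratios scaling the median of all genes on the low-fat diet moved to 0.014, against 0.146 as deposited, and the low-fat differences became 1.26 for Eln, 0.36 for Fbln2, 0.20 for Mfap5 and -0.91 for Efemp1.

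Diet was compared over both genotypes in 5 high-fat against 5 low-fat libraries. Efemp2 transcripts measured less on the high-fat diet in every library of both genotypes, and Eln and Fbln5 transcripts measured more on average. No member passed, as limma called 0 of 10 (0% of genes), with 2 members (Eln and Efemp2) against 9.69% of genes at an unadjusted p under 0.05. The members' median difference was -0.041 against 0.11 over all genes, 3 members lay above 0 (63.4% of all genes did), 7 lay below, and 7 were within 1 SE of 0. Neither that count nor the sign of the median held when certain libraries were left out. Without Null_HFD 3, 8 members lay above 0 (median 0.078), and without WT_HFD 2, 6 did (median 0.051). Without both of them 6 did, with a median of 0.181 against 0.061 over all genes, and without WT_LFD 1, 6 did (median 0.080). With sample weights, 7 members lay above 0 (median 0.044). The median stayed below 0 with any other single library left out, as at -0.110 without Null_HFD 1 and -0.108 without Null_LFD 1. With median-of-ratios scaling 3 members lay above 0, with a median of -0.158 against -0.0050 over all genes. Within wild type limma called 0 of 10 members (0% of genes), and 2 members had an unadjusted p under 0.05 (5.61% of genes). The wild-type groups, with 2 libraries each, did not overlap for 7 members (45.1% of genes), 4 of them higher on the high-fat diet (33.7% of genes) and 3 lower (11.5% of genes). Median-of-ratios scaling moved the median of all genes in this comparison to 0.016, against 0.197 as deposited. Within null pads it called 0 of 10 (0.00591% of genes), and 1 member had an unadjusted p under 0.05 (6.67% of genes). The null groups did not overlap for 1 member (11.1% of genes), Efemp2, which was lower on the high-fat diet (4.49% of genes, against 6.6% higher). The interaction, which asks whether the genotype difference depends on diet, called 0 of 10 members (0% of genes), and none had an unadjusted p under 0.05 (4.14% of genes).

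**Figure D2:**
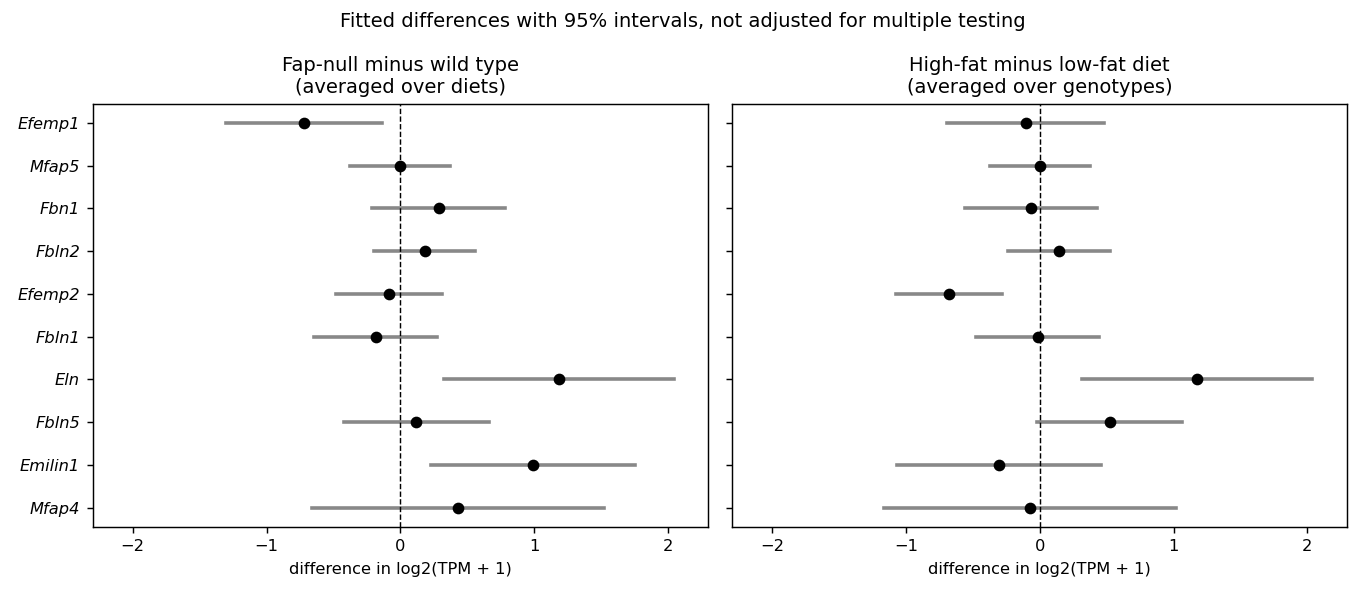
Fitted difference in log2(TPM + 1) for each gene (points) with its 95% interval before adjustment for multiple testing (lines), for null minus wild type over both diets (left) and high-fat minus low-fat diet over both genotypes (right), from 10 libraries. The intervals of Eln, Efemp1 and Emilin1 on the left and of Eln and Efemp2 on the right leave out 0, and none of these differences passed after adjustment.

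Elastin is the core of the fibre. Eln (chr5:134702593-134747323, minus strand; GRCm38 with GENCODE M21, as for the other genes) varied most of the 10 genes, with a standard deviation of 1.03 on the log2(TPM + 1) scale over all libraries against 0.276 to 0.748 for the others. It measured 45.3, 29.3 and 22.0 TPM in Null_HFD against 9.09 and 24.7 TPM in WT_HFD. On the low-fat diet it measured 16.7, 26.6 and 7.69 TPM in Null_LFD against 5.42 and 4.98 TPM in WT_LFD. The low-fat groups did not overlap, while on the high-fat diet WT_HFD 2 lay above Null_HFD 3, which are the libraries rich in lymph node transcripts. Group means were 32.2 ± 11.9 TPM in Null_HFD (SD, n = 3) and 16.9 ± 11.0 TPM in WT_HFD (SD, n = 2), and 17.0 ± 9.46 TPM in Null_LFD (SD, n = 3) and 5.20 ± 0.308 TPM in WT_LFD (SD, n = 2).

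The genotype difference of Eln over both diets was 1.19 on the log2(TPM + 1) scale (SE 0.38, limma adjusted p = 0.98, 95% interval 0.33 to 2.04 before adjustment). On the high-fat diet alone it was 0.98 (SE 0.54, adjusted p = 1), and on the low-fat diet alone 1.39 (SE 0.54, adjusted p = 0.949). The high-fat value turned on the 2 wild-type libraries, being 0.31 without WT_HFD 1, 1.66 without WT_HFD 2 and 1.89 without both lymph node-rich libraries. The value over both diets ran from 0.85 without WT_HFD 1 to 1.52 without WT_HFD 2, and was 1.64 without both lymph node-rich libraries. The diet difference was also positive, at 1.18 over both genotypes (SE 0.38, adjusted p = 0.513), 1.38 in wild type (SE 0.59, adjusted p = 0.761) and 0.97 in null pads (SE 0.48, adjusted p = 0.768). In wild type it was 0.70 without WT_HFD 2, the only one of the 4 wild-type libraries above 10 TPM, and 2.05 without WT_HFD 1. In null pads it was 0.53 without Null_LFD 3. The sums over 12 smooth muscle markers ran from 276 to 659 TPM in Null_HFD against 317 to 417 TPM in WT_HFD, and from 440 to 626 TPM in Null_LFD against 272 to 432 TPM in WT_LFD. All 12 were present in the table, and 1 member was listed at 0 in WT_HFD 2. The most abundant, Acta2 (mean 150 TPM), is also a marker of mammary basal epithelium, as is Myh11 (mean 41.0 TPM), so the sums are not specific to smooth muscle. The part of smooth muscle cells in the elastin values was not tested. In the annotation Gm30003, on the other strand, overlaps Eln, and the sources name no strand setting for the counting.

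Elastin transcript was also set against that of its scaffold. Eln measured 31.2%, 25.8% and 26.4% of the Fbn1 level in Null_HFD against 11.9% and 28.01% in WT_HFD, and 23.8%, 20.0% and 6.23% in Null_LFD against 5.85% and 5.06% in WT_LFD. Relative to Efemp1 it measured 28.9%, 18.6% and 30.9% in Null_HFD against 3.55% and 16.6% in WT_HFD, and 15.5%, 20.0% and 5.40% in Null_LFD against 2.58% and 2.27% in WT_LFD. The null and wild-type ratios to Efemp1 did not overlap within either diet. That ratio sets the member with the highest genotype difference over both diets (Eln, 1.19) over the one with the lowest (Efemp1, -0.72). The separation was not particular to Eln, as the levels of Fbn1, Fbln5, Efemp2 and Emilin1 relative to Efemp1 did not overlap within either diet. Those of Fbln1, Fbln2 and Mfap5 overlapped on the high-fat diet, and those of Mfap4 on the low-fat diet. How many pairs of other genes separate in this way was not counted. These ratios are descriptions made after the values were seen, with no test.

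Efemp1 (chr11:28853204-28926743, plus strand) encodes fibulin 3, a secreted glycoprotein that in mouse supports elastic fibres of fascia and binds the inhibitor TIMP3. It measured 157, 157 and 71.3 TPM in Null_HFD against 256 and 148 TPM in WT_HFD. It measured 108, 133 and 142 TPM in Null_LFD against 210 and 220 TPM in WT_LFD. The low-fat groups were apart, with every null library below both wild-type libraries, and on the high-fat diet WT_HFD 2 lay among the null libraries. The genotype difference over both diets was -0.72 (SE 0.26, adjusted p = 0.98), with -0.68 (SE 0.37, adjusted p = 1) on the high-fat and -0.76 (SE 0.37, adjusted p = 0.949) on the low-fat diet. The high-fat value was -0.29 without WT_HFD 1, -1.08 without WT_HFD 2 and -0.31 without Null_HFD 3. Between the diets Efemp1 was within 1 SE of 0. Mesothelium also makes Efemp1, but of 8 mesothelial markers 5 to 7 were below 1 TPM and 2 to 4 were listed at 0 in each library. Their sum ran from 40.8 to 166 TPM in Null_HFD against 193 to 195 TPM in WT_HFD, and from 161 to 325 TPM in Null_LFD against 159 to 259 TPM in WT_LFD, and was mostly Krt19, a keratin shared with epithelium. The part of these cells in the Efemp1 values was not tested.

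The start region of Efemp1 is shown with that of Efemp2 and Emilin1 because these are the members with the larger genotype or diet differences that RefSeq's table (GRCm38.p6) covers. That table matched 7 of the 10 members, and Eln, Mfap4 and Mfap5 were not among them. Each sequence runs 5′ to 3′ on the gene's own strand from 250 bases before to 50 bases after the transcript start. The sequences are Efemp1 (chr11:28852955-28853254, plus strand), one of the starts of Efemp2 (chr19:5473696-5473995, plus strand) and Emilin1 (chr5:30913536-30913835, plus strand), and capitals mark matches on either strand to the TATA box TATAAA, the GC box GGGCGG, the CCAAT box, the AP-1 motif TGANTCA or the TEAD motif GGAATG.
Efemp1: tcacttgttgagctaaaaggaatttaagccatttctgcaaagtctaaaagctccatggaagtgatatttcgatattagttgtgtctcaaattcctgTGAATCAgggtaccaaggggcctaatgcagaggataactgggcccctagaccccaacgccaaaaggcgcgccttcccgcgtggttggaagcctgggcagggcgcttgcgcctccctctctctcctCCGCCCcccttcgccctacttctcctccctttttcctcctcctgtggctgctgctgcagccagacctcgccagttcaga
Efemp2: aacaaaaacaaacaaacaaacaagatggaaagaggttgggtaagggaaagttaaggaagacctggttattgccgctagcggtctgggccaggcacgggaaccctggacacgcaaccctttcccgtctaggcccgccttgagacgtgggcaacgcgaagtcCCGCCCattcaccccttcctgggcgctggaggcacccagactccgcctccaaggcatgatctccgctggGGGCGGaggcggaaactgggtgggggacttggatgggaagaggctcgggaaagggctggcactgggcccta
Emilin1: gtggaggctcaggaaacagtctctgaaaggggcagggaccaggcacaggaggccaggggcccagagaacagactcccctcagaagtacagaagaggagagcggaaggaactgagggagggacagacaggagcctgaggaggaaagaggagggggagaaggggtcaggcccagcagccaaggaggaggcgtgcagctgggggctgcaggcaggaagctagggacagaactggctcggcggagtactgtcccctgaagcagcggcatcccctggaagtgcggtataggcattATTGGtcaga
The Efemp1 window held TGAATCA from -154 to -148 relative to the start, a match to the AP-1 pattern TGANTCA, which allows any central base. It also held the GC box GGGCGG, on the opposite strand, from -29 to -24. The Efemp2 window held the GC box at -90 to -85 on the opposite strand and at -21 to -16. The Emilin1 window held CCAAT on the opposite strand from 41 to 45, after the start. That whole window lies inside the gene as GENCODE M21 places it (chr5:30913402-30921277, plus strand), so the RefSeq start used is downstream of the GENCODE start. Of 32851 RefSeq promoters of this length, 35.7% held the GC box, 37.4% the CCAAT box, 7.81% the AP-1 motif, 13.6% the TATA box and 14.7% the TEAD motif. They describe letters in these windows and carry no measurement of binding.

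Efemp2 (chr19:5473954-5482517, plus strand) encodes fibulin 4, which in mouse is required to bring lysyl oxidase to tropoelastin. It measured 27.4, 34.4 and 24.8 TPM in Null_HFD against 37.0, 37.9 and 53.4 TPM in Null_LFD. It measured 31.8 and 24.0 TPM in WT_HFD against 56.5 and 43.0 TPM in WT_LFD. All 5 high-fat libraries lay below all 5 low-fat libraries, the only member of which this was true, where 0.413% of genes were separated in that direction, 1.59% in the other and 2% in either. The diet difference was -0.68 (SE 0.17, adjusted p = 0.513, 95% interval -1.07 to -0.28 before adjustment), with -0.81 (SE 0.27, adjusted p = 0.761) in wild type and -0.54 (SE 0.22, adjusted p = 0.715) in null pads. It was -0.53 without both lymph node-rich libraries and -0.81 with median-of-ratios scaling. Between the genotypes Efemp2 was within 1 SE of 0. Mus81, a DNA repair nuclease gene on the other strand, overlaps Efemp2 and measured 16.5 to 27.0 TPM in the high-fat against 16.4 to 24.3 TPM in the low-fat libraries.

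The other fibulins had smaller averaged differences than Efemp1 between the genotypes and than Efemp2 between the diets. Fbln5 (chr12:101746565-101819055, minus strand) encodes fibulin 5, which tethers tropoelastin to microfibrils and to integrins, and measured 21.1, 19.9 and 9.04 TPM in Null_HFD against 11.6, 10.9 and 8.85 TPM in Null_LFD. It measured 13.4 and 14.7 TPM in WT_HFD against 10.2 and 9.22 TPM in WT_LFD. Null_HFD 3 alone of the high-fat libraries lay in the low-fat range of 8.85 to 11.6 TPM. The diet difference of Fbln5 was 0.52 (SE 0.24, adjusted p = 0.523), and in null pads it was 0.55 (SE 0.31, adjusted p = 0.785) with 0.92 without Null_HFD 3 and 0.35 without Null_HFD 1. Between the genotypes Fbln5 was within 1 SE of 0.

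Fbln2 (chr6:91212455-91272540, plus strand), whose fibulin 2 binds fibrillin and basement membrane proteins, measured 79.0, 90.1 and 53.5 TPM in Null_HFD against 81.9 and 79.3 TPM in WT_HFD. It measured 77.2, 73.5 and 99.4 TPM in Null_LFD against 58.0 and 57.3 TPM in WT_LFD. The low-fat groups did not overlap, and in the high-fat diet the wild-type values lay inside the null range. The genotype difference of Fbln2 was 0.51 (SE 0.24, adjusted p = 0.949) on the low-fat diet, within 1 SE of 0 on the high-fat diet and 0.18 over both (SE 0.17, adjusted p = 0.98), and the interaction was -0.66 (SE 0.34, adjusted p = 1). The value over both diets was 0.10 without Null_HFD 2 and with median-of-ratios scaling, 0.12 without Null_LFD 3 and 0.29 without Null_HFD 3. Fbln1 (chr15:85205949-85286535, plus strand), a fibulin of vessel walls and basement membranes, ranged from 15.5 to 25.2 TPM in Null_HFD against 24.5 and 26.3 TPM in WT_HFD, and from 18.7 to 30.8 TPM in Null_LFD against 19.6 and 27.2 TPM in WT_LFD. Its high-fat genotype difference was -0.33 (SE 0.29, adjusted p = 1) and -0.15 without Null_HFD 3.

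Fibrillin 1 forms the backbone of the microfibril, and Fbn1 measured 145, 113 and 83.4 TPM in Null_HFD against 76.3 and 88.0 TPM in WT_HFD. It measured 70.3, 133 and 123 TPM in Null_LFD against 92.6 and 98.4 TPM in WT_LFD. The groups overlapped in both diets. The genotype difference was 0.29 over both diets (SE 0.22, adjusted p = 0.98), with 0.19 without Null_HFD 1, and 0.44 (SE 0.31, adjusted p = 1) on the high-fat diet, which was 0.24 without Null_HFD 1 and 0.74 without both lymph node-rich libraries. Gm9913, on the other strand, overlaps Fbn1 and measured 1.38 to 2.72 TPM. Fbn1 was the only member on chromosome 2 (chr2:125300594-125507993, minus strand), the chromosome that carries Fap, with 62.7 Mb between them.

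Mfap5 (chr6:122505845-122529290, plus strand), which encodes the microfibril glycoprotein MAGP-2, measured 149, 130 and 107 TPM in Null_HFD against 144 and 186 TPM in WT_HFD. It measured 141, 151 and 204 TPM in Null_LFD against 139 and 117 TPM in WT_LFD. The low-fat groups were set apart by a margin of 141 TPM (Null_LFD 1) against 139 TPM (WT_LFD 1), and the high-fat groups overlapped. Its genotype difference was -0.36 (SE 0.23, adjusted p = 1) on the high-fat diet and 0.36 (SE 0.23, adjusted p = 0.949) on the low-fat diet, with an interaction of -0.71 (SE 0.33, adjusted p = 1). On the high-fat diet the value was -0.17 without WT_HFD 2 and -0.046 without both lymph node-rich libraries, without which the interaction was -0.40, and the low-fat value was 0.20 without Null_LFD 3. Mfap4 (chr11:61485431-61488900, plus strand), whose product binds elastin, fibrillin and collagen, was the least abundant member. It measured 10.3, 4.19 and 2.69 TPM in Null_HFD against 4.32 and 2.02 TPM in WT_HFD, and 3.45, 12.7 and 2.04 TPM in Null_LFD against 5.06 and 2.63 TPM in WT_LFD. Null_HFD 1 and Null_LFD 2 were the only libraries above 10 TPM, the groups overlapped in both diets, and every difference of Mfap4 was within 1 SE of 0. Mapk7, a kinase gene on the other strand, overlaps Mfap4 and measured 4.68 to 17.4 TPM.

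Emilin1 (chr5:30913402-30921277, plus strand) encodes a glycoprotein at the border of elastin and microfibril that restrains TGF-beta processing in mouse. It measured 4.99, 9.96 and 8.83 TPM in Null_HFD against 2.25 and 2.42 TPM in WT_HFD. It measured 4.02, 5.84 and 14.9 TPM in Null_LFD against 4.32 and 4.43 TPM in WT_LFD. All 3 Null_HFD libraries lay above both WT_HFD libraries, while 1 Null_LFD library lay below both WT_LFD libraries. Emilin1 was the only member whose high-fat groups did not overlap. The genotype difference was 0.99 over both diets (SE 0.34, adjusted p = 0.98), 1.37 (SE 0.48, adjusted p = 1) on the high-fat diet and 0.61 (SE 0.48, adjusted p = 0.949) on the low-fat diet. The low-fat value was 0.13 without Null_LFD 3, the library with the high cell cycle markers, and 0.96 without Null_LFD 1, and the part of dividing cells in it was not tested. In wild type Emilin1 had a diet difference of -0.69 (SE 0.52, adjusted p = 0.761). The interaction was 0.77 (SE 0.67, adjusted p = 1), running from 0.41 without Null_LFD 1 to 1.25 without Null_LFD 3. At these low levels the log2(TPM + 1) scale understates ratios.

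**Figure D3:**
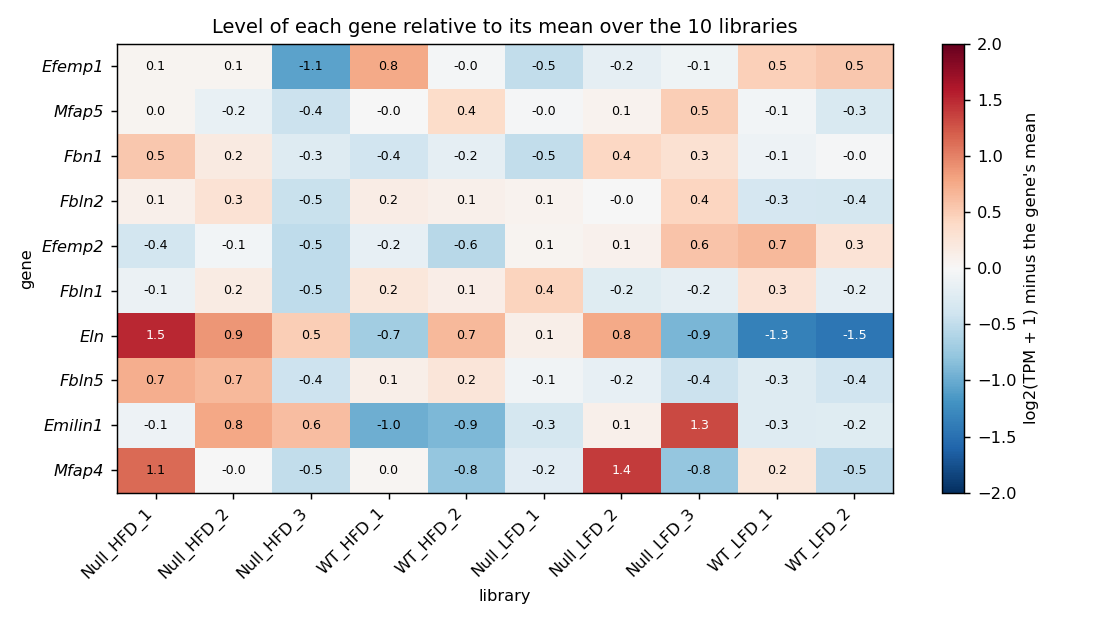
Heat map of log2(TPM + 1) minus the mean of each gene over the 10 libraries, with genes in rows and libraries in columns. Eln runs from 1.502 in Null_HFD 1 to -1.45 in WT_LFD 2, while Null_HFD 3 is below the mean for 8 of the 10 genes and above it for Eln (0.50) and Emilin1 (0.62).

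Profiles over the libraries differed between the genes. With profiles centred on each gene's mean over the 10 libraries, Fbln2 and Mfap5 were the closest pair, with a mean absolute difference of 0.15 on the log2 scale. Eln was the farthest member from 8 of the other 9, and its own nearest member was Fbln5 (0.689), its farthest Efemp1 (1.22). The profiles were not scaled, so this measure grows with the spread of a gene as well as with the shape of its profile. Eln had the largest standard deviation (1.03), and those of Fbln2 (0.291) and Mfap5 (0.276) were among the smallest. Over 11118 other genes (mean of 5 TPM or more), the 5 nearest to Eln by the same measure were Nckap5l (0.392), Lbp, which encodes lipopolysaccharide-binding protein (0.404), Aldh1a1, a retinaldehyde dehydrogenase gene (0.406), Sulf1, a heparan sulfate sulfatase gene (0.412), and Usp35, a deubiquitinase gene (0.422). For Fbn1 they were Rad18, a ubiquitin ligase gene of DNA repair (0.141), Rps2-ps10, a pseudogene by its name whose value is uncertain (0.142), Gng5, a G protein subunit gene (0.148), Retnla (0.151) and Tmem98 (0.151). These are descriptions over 10 libraries that share their groups.

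**Figure D4:**
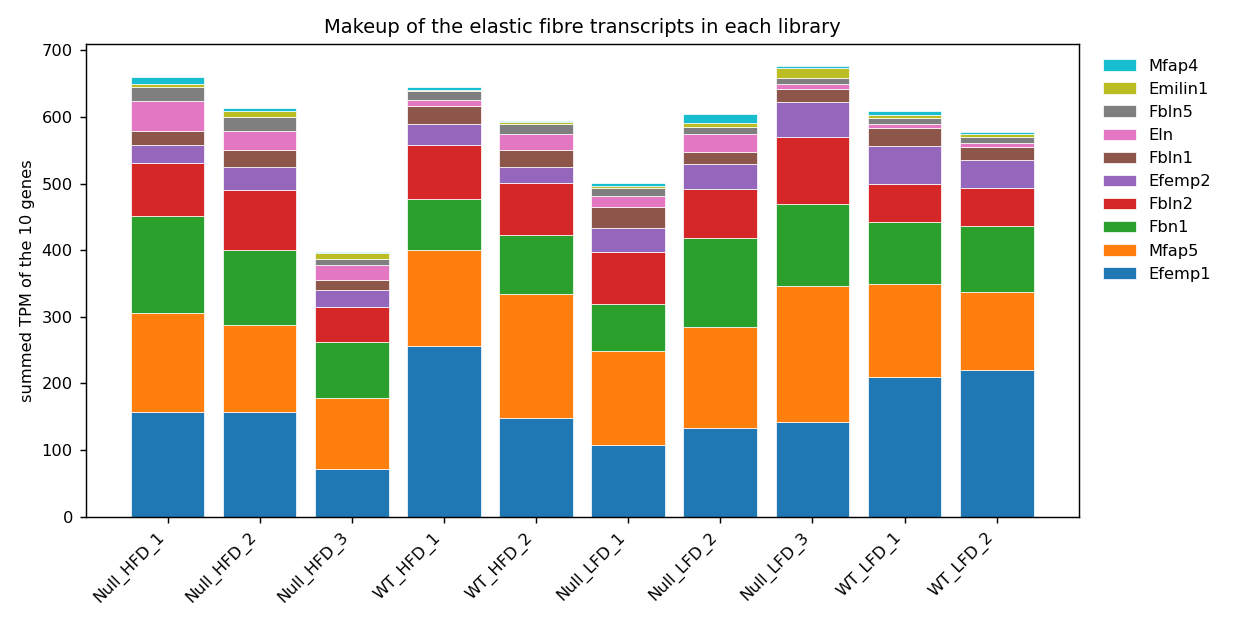
Summed TPM of the 10 genes in each library (bars from 0), split by gene. Efemp1 made up 17.9% to 25.7% of the sum in the 6 null libraries and 25.0% to 39.7% in the 4 wild-type libraries, and the whole bar was lowest in Null_HFD 3 (398 TPM).

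Efemp1 took a smaller share of elastic fibre transcripts in most null than in wild-type libraries, with Null_HFD 2 above WT_HFD 2 as the exception. It made up 23.8%, 25.7% and 17.9% of the summed TPM in Null_HFD against 39.7% and 25.0% in WT_HFD, and 21.5%, 22.0% and 21.1% in Null_LFD against 34.6% and 38.1% in WT_LFD. Eln made up 6.86%, 4.77% and 5.54% in Null_HFD against 1.41% and 4.15% in WT_HFD, and 3.35%, 4.41% and 1.14% in Null_LFD against 0.891% and 0.864% in WT_LFD. Within each diet the null and wild-type shares of Eln did not overlap, and neither did those of Emilin1. Emilin1 made up 0.755%, 1.62% and 2.22% in Null_HFD against 0.349% and 0.408% in WT_HFD. In Null_LFD it made up 0.804%, 0.968% and 2.21% against 0.710% and 0.768% in WT_LFD. The shares of each other member overlapped on the low-fat diet, the high-fat diet or both. Shares of a sum are tied, so a smaller Efemp1 share leaves more for the rest. The separations were seen after the fact and were not tested. The Eln level itself overlapped on the high-fat diet, with 22.0 TPM in Null_HFD 3 against 24.7 TPM in WT_HFD 2. Null_HFD 3 also had the lowest sum to divide by (398 TPM).

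Among other genes of the pathway none passed. Of 30 other microfibril and elastic fibre components 28 were tested, and limma called 0 higher and 0 lower in the genotype comparison over both diets, with 21 above 0 (63.5% of all genes were), 7 below and a median of 0.20 against 0.084 over all genes. In the diet comparison it called 0 and 0, with a median of 0.14 against 0.11. The second fibrillin, Fbn2, was low, at 0.267 to 1.76 TPM in 9 libraries and 5.92 TPM in Null_LFD 3. Mfap2, the gene of MAGP-1, measured 13.3, 15.2 and 7.66 TPM in Null_HFD against 8.08 and 11.3 TPM in WT_HFD, and 9.32, 15.8 and 15.3 TPM in Null_LFD against 9.85 and 7.65 TPM in WT_LFD (genotype difference 0.40, SE 0.25, adjusted p = 0.98). Of the latent TGF-beta binding proteins, which dock on fibrillin, Ltbp1 was the most abundant (89.2 to 152 TPM), and the genotype differences were 0.27 for Ltbp1 (SE 0.15), -0.41 for Ltbp2 (SE 0.26), -0.11 for Ltbp3 (SE 0.32) and -0.49 for Ltbp4 (SE 0.33), all with an adjusted p of 0.98 or more. Ltbp4 assists elastin assembly in mouse. Vcan, the gene of the proteoglycan versican that binds fibrillin, measured 121 TPM in Null_LFD 3 and 7.17 to 21.01 TPM elsewhere. Hspg2, which encodes perlecan, ranged from 43.2 to 136 TPM, Fbln7 from 4.596 to 17.7 TPM, Emilin2 from 16.8 to 40.6 TPM and Adamtsl2, whose product binds fibrillin, from 0.133 to 3.04 TPM.

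All 12 crosslinking and assembly genes were tested, with 0 called higher and 0 lower in either averaged comparison. Lox, the main lysyl oxidase gene, measured 64.1, 52.7 and 30.6 TPM in Null_HFD against 42.2 and 70.9 TPM in WT_HFD, and 43.2, 56.2 and 13.4 TPM in Null_LFD against 41.5 and 36.3 TPM in WT_LFD. Loxl1, whose product is needed for elastin renewal in mouse, ranged from 22.5 to 52.6 TPM, with a genotype difference of 0.16 (SE 0.23, adjusted p = 0.98). Of 15 proteases that can degrade elastin or microfibrils 12 were tested, with 0 called in either direction. Mmp12, the macrophage elastase, measured 17.9, 59.1 and 35.0 TPM in Null_HFD against 17.4, 15.3 and 9.35 TPM in Null_LFD, and 17.2 and 19.5 TPM in WT_HFD against 12.6 and 11.1 TPM in WT_LFD (diet difference 0.92, SE 0.31, adjusted p = 0.513). Ctss, the cathepsin S gene, was highest in the lymph node-rich libraries, at 411 TPM in Null_HFD 3 and 184 TPM in WT_HFD 2 against 62.3 to 137 TPM in the others. Of 10 integrin genes whose products bind these proteins, 9 lay above 0 in the genotype comparison over both diets (median 0.35 against 0.084 over all genes, of which 63.5% lay above 0), and limma called 0. On the high-fat diet 7 of 10 lay above 0 (median 0.13 against 0.016 over all genes, 52.1% of them above 0), and on the low-fat diet 10 of 10 did (median 0.51 against 0.146 over all genes, 66.9% of them above 0).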

How the data were processed

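The authors deposited 1 table of log2(TPM + 1) values per gene symbol and library. That unit was read from the values, which start at 0 and total 946103 to 954463 TPM per library once taken back. The submitters' processing notes name kallisto, limma and the build GRCm38, with no version or role in the sources. The 1 line without a symbol (at most 0.0108% of TPM) was left out. A gene was tested where 2 or more libraries reached 1 TPM (16932 genes, all 10 members included). The log2(TPM + 1) values were fitted in limma 3.58.1 under R 4.3.3 with a mean for each of the 4 groups and moderated variances that depend on expression, which left 6 residual degrees of freedom. Tests of the 7 comparisons were two-sided, with Benjamini-Hochberg adjustment over all genes and calls at an adjusted p up to 0.05. P-values measure the spread between these libraries. Differences are null minus wild type or high-fat minus low-fat on the log2(TPM + 1) scale, which understates ratios of low genes.

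The members and lists were chosen with earlier results of these data known. All members are named, with other pathway genes fixed by name and the genes of like profile by rank. Member differences within 1 SE of 0 are not printed, a rule set after the values were seen. The names of genes that overlap members (Mus81, Mapk7, Gm9913 and Gm30003) were also set then. Gm30003 was not among the deposited gene symbols, so it has no values here. The procedure was tested on simulated data, and how often it recovers differences as small as those of the members is not given here. Coordinates and overlaps come from GENCODE M21 (GRCm38). Alternatives changed the filter, pseudocount, scaling, variance model, replicate block and libraries used.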

Additional observations from a re-analysis of the deposited data

How the results depend on the processing

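The number of elastic fibre genes called stayed at 0 in all 144 alternative results over the 7 comparisons. No alternative called more than 18 of all genes, so a count of 0 among the members carries little information. The 32 member differences larger than 1 SE kept their direction, and none passed, in all 661 alternative fits, where the lowest adjusted p was 0.312. Their direction could not change under another filter, without a variance trend or with the 2 groups alone, as the estimate stays the same. The same holds where the left-out library lies outside the groups compared. These 32 were also picked for their size in the same values. Of the 38 differences within 1 SE of 0, 27 changed direction under at least 1 alternative. The settings moved the count of all genes called. For genotype over both diets (0 genes) it was 15 without a filter, 3 with a pseudocount of 0.1, 5 without a variance trend, 2 with sample weights and 0 to 2 leaving out 1 library. For genotype on the high-fat diet (2 genes) it was 18 without a filter, 1 with a pseudocount of 0.1 or 5, 1 with the 2 groups alone, 0 without both lymph node-rich libraries and 0 to 3 leaving out 1 library. For genotype on the low-fat diet (0 genes) it was 2 without a filter, 5 with a pseudocount of 0.1, 1 without a variance trend, 2 with sample weights, 1 with the 2 groups alone and 0 to 1 leaving out 1 library. For diet over both genotypes (0 genes) it was 3 without a filter, 1 without both lymph node-rich libraries and 0 to 1 leaving out 1 library. For diet in wild type (0 genes) it was 5 without a filter, 2 without a variance trend and 0 to 2 leaving out 1 library. For diet in null pads (1 gene) it was 0 without a filter, with a pseudocount of 0.1 or 5, without a variance trend or with both lymph node-rich libraries left out, 2 with sample weights or the 2 groups alone, and 0 to 2 leaving out 1 library. For the interaction (0 genes) it was 3 without a filter and 0 to 2 leaving out 1 library. The cause was not tested.

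With the replicate number as a block, 3 genes were called for diet in null pads and no other count moved. Only 2 of 13 same-numbered pairs had deviations from their group means that correlated above 0.1 across genes (range -0.346 to 0.412). In groups of 2 libraries the deviations mirror each other, so these pairs are not independent. The check therefore cannot settle whether the numbers pair the libraries. Where a left-out library leaves 1 in a group, that library is assumed to vary like the others. Depth limits could not be set, because TPM keep no read numbers.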
